A study of Mus musculus with 7 samples.

Results

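The genes described are the 4 mouse metallothioneins Mt1, Mt2, Mt3 and Mt4, the metal sensor Mtf1, the zinc exporters Slc30a1 and Slc30a10, and the zinc importers Slc39a4, Slc39a5 and Slc39a14. These 10 symbols were looked up among the 14795 genes of a table of duodenal RNA, and all 10 were listed. The metallothioneins were chosen by CPM values higher in knockout mice in these same libraries, a rise that Mt3 did not share. Their values are therefore given as a description and without a test. The other 6 genes were picked for their role in zinc handling, and the comparison asks whether they moved with the metallothioneins.

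RNA came from whole duodena of C57BL/6 mice, 3 Ppara lox/lox controls and 4 Ppara I-KO mice, with 1 library per replicate. Both groups carry loxP sites in both copies of Ppara, the gene of a fatty acid-sensing nuclear receptor, and the Ppara I-KO mice also carry Villin-Cre, which drives Cre in the intestinal epithelium. The presence of Cre and the loss of Ppara therefore cannot be told apart. Per the labels, food was withheld for 6 h and then given back for 6 h in both groups. The labels give neither diet nor age, whereas the methods describe male mice on HFD. Since the tissue also holds muscle, nerve and immune cells, fewer cells of a type and less RNA per cell cannot be told apart.

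Metallothioneins are small, cysteine-rich proteins that bind zinc and copper in the cytosol and are known to be induced in enterocytes by zinc, heavy metals and stress. When free zinc rises, the zinc finger protein MTF1 binds short metal response elements (MREs) in the promoters of metallothionein genes and of Slc30a1, and transcription increases. Zinc transporters of the SLC39 family bring zinc into the cytosol, and those of the SLC30 family move it out of the cell or into vesicles.

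The 4 metallothionein genes lie in one row on the plus strand of chromosome 8 in GRCm38. Mt4 is at chr8:94137197-94139031, Mt3 at chr8:94152607-94154146, Mt2 at chr8:94172664-94173568 and Mt1 at chr8:94179082-94180327, a stretch of 43131 bases in all. The gap between neighbours was 13575 bases from Mt4 to Mt3, 18517 bases from Mt3 to Mt2 and 5513 bases from Mt2 to Mt1. Their coding sequences from the GENCODE M21 annotation, joined over the exons, are printed because the likeness of the 4 genes bears on how reads were assigned to each. Capitals mark the cysteine codons.
Mt1: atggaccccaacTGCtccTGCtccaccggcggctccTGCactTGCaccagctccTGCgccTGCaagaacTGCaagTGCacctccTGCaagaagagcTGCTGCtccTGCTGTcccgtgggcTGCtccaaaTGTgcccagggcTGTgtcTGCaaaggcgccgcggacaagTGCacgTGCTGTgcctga
Mt2: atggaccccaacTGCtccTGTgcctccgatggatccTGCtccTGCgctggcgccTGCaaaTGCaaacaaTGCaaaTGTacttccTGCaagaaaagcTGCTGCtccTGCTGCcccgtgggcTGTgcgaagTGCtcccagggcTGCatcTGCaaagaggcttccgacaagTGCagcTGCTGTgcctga
Mt3: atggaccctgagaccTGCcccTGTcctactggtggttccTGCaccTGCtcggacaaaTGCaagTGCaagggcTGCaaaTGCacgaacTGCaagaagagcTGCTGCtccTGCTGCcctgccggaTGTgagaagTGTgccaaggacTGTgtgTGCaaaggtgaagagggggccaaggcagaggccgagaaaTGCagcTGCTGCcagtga
Mt4: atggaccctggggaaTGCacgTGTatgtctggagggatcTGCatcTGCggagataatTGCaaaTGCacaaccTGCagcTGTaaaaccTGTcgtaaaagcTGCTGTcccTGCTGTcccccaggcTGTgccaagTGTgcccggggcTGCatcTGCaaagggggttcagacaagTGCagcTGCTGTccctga
Each of the 4 reading frames held 20 cysteine codons. They made up 32.8% of the 61 codons of Mt1 and of Mt2, 29.4% of the 68 codons of Mt3 and 32.3% of the 62 codons of Mt4. Mt1 and Mt2 were the most alike, with 79.6% identical bases, and the other pairs shared between 68.6% and 75.3%. No stretch of 100 bases, the length of a read, was shared by any pair of full transcripts, untranslated ends included. The closest such stretches of the Mt1 and Mt2 transcripts differed at 17 bases. Mt2 shares 355 exonic bases with the antisense gene Gm45774, which the table did not list.

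Facts of the libraries that touch these genes come first. Between 20741419 and 25885331 reads per library were assigned to listed genes. The Ppara total was 49.3 to 63.2 CPM in Ppara lox/lox and 33.1 to 69.9 CPM in Ppara I-KO mice, and 1 library, labelled I-KO replicate 4, exceeded all controls. A gene total includes exons outside the loxP sites and RNA of cells in which Cre is not expressed, and is no check of the recombination. Summed enterocyte markers, all 10 of 10 listed, were 57105 to 67254 CPM in controls and 56964 to 74533 CPM in Ppara I-KO mice. This sum mostly reflects the most abundant genes of the list. By gene, 7 were higher and 3 lower in Ppara I-KO mice, with log2 differences from -0.57 for Fabp1 to 0.31 for Alpi. Pancreatic acinar markers, 12 of 14 listed, stood apart in I-KO replicate 1 with a sum of 405 CPM, against 25.6 to 40.8 CPM in the other Ppara I-KO libraries and up to 91.8 CPM in lox/lox replicate 2. No gene of the 9 stratified squamous epithelium markers was listed.

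Mt1 and Mt2, the broadly expressed and metal-inducible members, were many times higher in all Ppara I-KO mice. Values are CPM, read counts that the authors scaled to an adjusted library size. Mt1 stood at 41.7, 39.4 and 21.7 CPM in Ppara lox/lox replicates 1 to 3 and at 322, 251, 269 and 219 CPM in Ppara I-KO replicates 1 to 4. The lowest Ppara I-KO mouse was far above the highest control, and the means of 34.3 ± 10.9 (SD, n = 3) and 265 ± 43.1 CPM (SD, n = 4) gave a ratio of 7.74. Mt2 was 6.22, 5.83 and 2.12 CPM in controls and 94.8, 79.4, 83.5 and 62.6 CPM in Ppara I-KO mice. Again the groups were far apart, with means of 4.72 ± 2.26 (SD, n = 3) and 80.1 ± 13.3 CPM (SD, n = 4) and a ratio of 17.0. On the log2(CPM + 1) scale, the difference of Ppara I-KO minus lox/lox was 2.96 for Mt1 and 3.90 for Mt2.

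Mt4 and Mt3 are known for narrow expression, Mt4 in stratified squamous epithelium and Mt3 in the brain. For Mt4, no read was counted in any of the 3 control libraries, and 46, 75, 50 and 47 reads were counted in Ppara I-KO replicates 1 to 4, at 2.20, 2.95, 2.65 and 1.94 CPM. The mean of the Ppara I-KO mice was 2.44 ± 0.452 CPM (SD, n = 4). With a floor of 3 reads over the control group, or 0.0435 CPM, pooled Mt4 was at least 56.1-fold higher in Ppara I-KO mice. Mt4 passed the filter of more than 1 CPM in at least 3 libraries only through the Ppara I-KO group, and its log2 difference of 1.77 depends on the pseudocount of 1.

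Mt3 was the one metallothionein without a separation of the groups. It was 0.54, 0.43 and 0.43 CPM in controls and 0.48, 0.39, 0.21 and 0.17 CPM in Ppara I-KO mice, from 4 to 11 reads per library. The ranges overlapped, Mt3 failed the filter, and at this depth a difference was not detectable. Across the 13399 genes that passed the filter, limma called 4, which is 0.0299%, of which 3 were called higher (0.0224%) and 1 was called lower (0.00746%). The 3 were Mt1, Mt2 and Mt4, an outcome that their selection had fixed and that is no test of them. The gene called lower was Me1, an enzyme of NADPH supply, whose call was lost in 9 of 15 alternative analyses. Non-overlapping groups with all Ppara I-KO mice higher were found for 2.91% of genes. Nothing is read from the place of the metallothioneins among these counts.

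**Figure D1:**
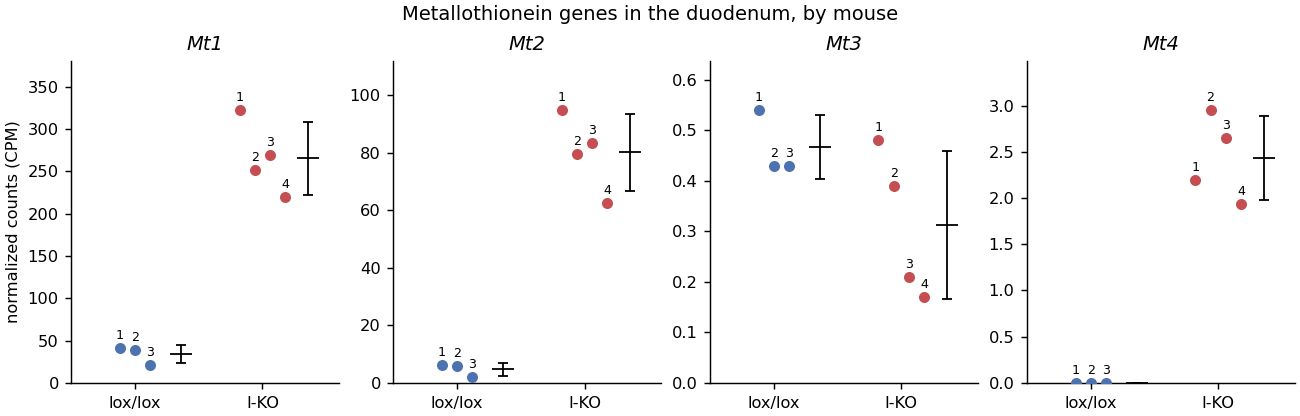
CPM of the 4 metallothioneins in each library, one panel per gene, for Ppara lox/lox and Ppara I-KO mice; points carry the replicate number and the black bars give mean ± SD. The 4 Ppara I-KO points of Mt1 (219 to 322 CPM), Mt2 (62.6 to 94.8 CPM) and Mt4 (1.94 to 2.95 CPM) lie above all controls, whereas those of Mt3 overlap them.

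The metallothioneins also varied among mice of one genotype. In controls, the highest library exceeded the lowest 1.92-fold for Mt1 and 2.93-fold for Mt2, and in Ppara I-KO mice these ratios were 1.47 and 1.51. Mt1 and Mt2 ranked the libraries in the same order within each group, with lox/lox replicate 3 lowest among controls and I-KO replicate 1 highest and I-KO replicate 4 lowest among Ppara I-KO mice. The order was not particular to this pair. Slc39a14 and another SLC39 gene, Slc39a13, had it in both groups, and Slc30a1 had it among Ppara I-KO mice only. Mt4 followed another order, in which I-KO replicate 2 was highest, but I-KO replicate 4 was again the lowest. Without I-KO replicate 4, the log2 differences were 3.04 for Mt1, 4.02 for Mt2 and 1.84 for Mt4. Without I-KO replicate 1, the library with the acinar RNA, they were 2.86, 3.82 and 1.802.

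The share of Mt2 in the pair is given as a description too, since it comes from the values that picked both genes. Of the summed Mt1 and Mt2 reads, Mt2 made up 12.98% (95% Wilson interval 11.0% to 15.2%), 12.9% (11.0% to 15.0%) and 8.90% (6.88% to 11.4%) in the controls. In Ppara I-KO replicates 1 to 4 it made up 22.7% (21.9% to 23.6%), 24.0% (23.1% to 24.9%), 23.7% (22.7% to 24.7%) and 22.2% (21.2% to 23.2%). The Ppara I-KO values lay above those of the controls, with group means of 11.6 ± 2.33% (SD, n = 3) and 23.2 ± 0.838% (SD, n = 4). The intervals cover counting error within a library only, not the spread between mice. In Ppara I-KO mice, Mt4 reads amounted to between 0.684% and 1.17% of the Mt1 reads.

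**Figure D2:**
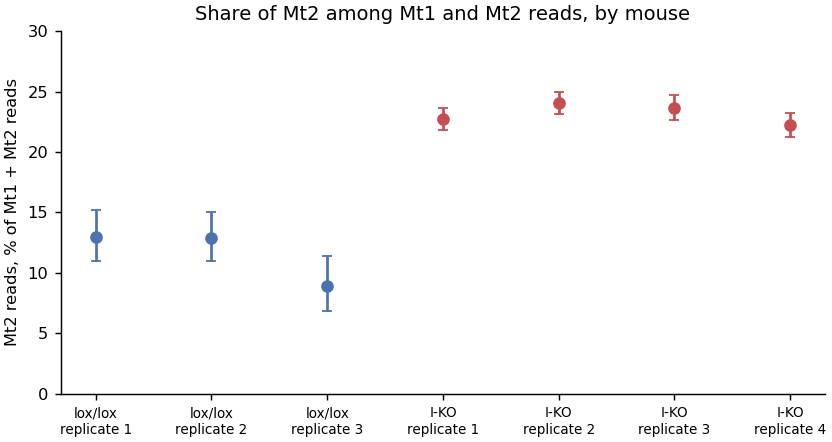
Mt2 reads as a percentage of Mt1 plus Mt2 reads in each library, with 95% Wilson intervals as vertical bars. The 3 Ppara lox/lox libraries lie between 8.90% and 12.98% and the 4 Ppara I-KO libraries between 22.2% and 24.0%.

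Levels were compared between genes after division by the full length of a single annotated transcript, which is a rough measure. Metallothionein transcripts have 398 to 549 bases and those of the other 6 genes 1947 to 7631 bases. No correction for fragment length was made. In controls, Slc39a4 had the highest level of the 10 genes, with 125 ± 24.4 CPM per kb (SD, n = 3), followed by Slc39a14 with 113 ± 14.7, Slc39a5 with 71.0 ± 4.00 and Mt1 with 62.5 ± 19.9 CPM per kb. The first pair, and Slc39a5 and Mt1, did not differ beyond their spread. Slc30a10 at 18.7 ± 4.76, Mt2 at 9.24 ± 4.43, Slc30a1 at 8.64 ± 1.05 and Mtf1 at 5.24 ± 0.394 CPM per kb were lower, with Mt2 and Slc30a1 within their spread, and Mt3 reached 0.871 ± 0.118 CPM per kb. In Ppara I-KO mice, Mt1 had the highest level with 484 ± 78.5 CPM per kb (SD, n = 4), and Mt2 came second with 157 ± 26.1 CPM per kb, within its spread of Slc39a4 at 142 ± 14.6 CPM per kb. Mt4 at 6.12 ± 1.13 CPM per kb lay between Slc30a1 at 8.12 ± 0.227 and Mtf1 at 4.85 ± 0.439 CPM per kb.

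**Figure D3:**
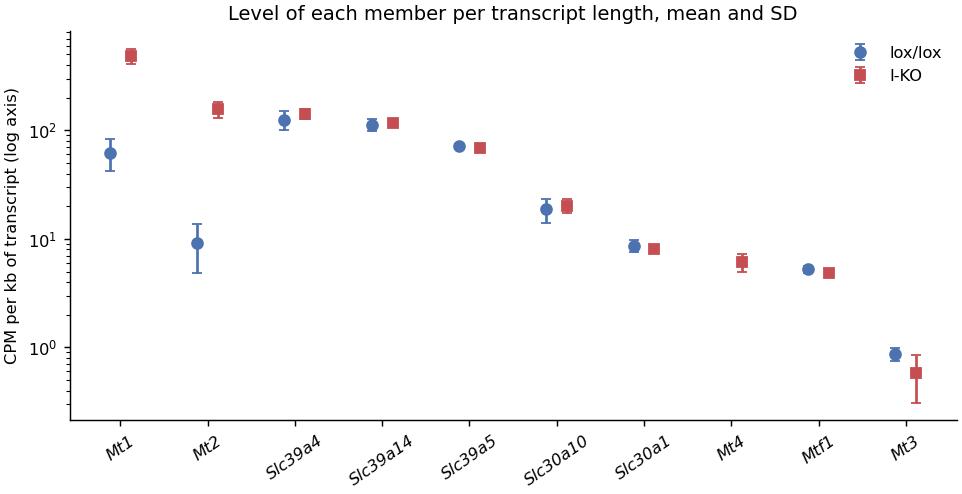
Mean level of each of the 10 genes in CPM per kb of transcript on a log axis, for Ppara lox/lox and Ppara I-KO mice. Mt1 moves from 62.5 to 484 and Mt2 from 9.24 to 157 CPM per kb, while the importers Slc39a4, Slc39a14 and Slc39a5 stay between 68.3 and 142 CPM per kb in both groups.

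MTF1 recognises the MRE core, searched here as TGCACNC or TGCGCNC on both strands in the 300 bases around each RefSeq start site (250 before and 50 after). The 250 bases upstream of the start are printed for the 3 metallothioneins that were higher in Ppara I-KO mice and for both exporters. They show where this core lies before the start site used. Sequences are on the plus strand of RefSeq GRCm38.p6, and capitals mark matches on either strand.
Mt1, chr8:94178839-94179088: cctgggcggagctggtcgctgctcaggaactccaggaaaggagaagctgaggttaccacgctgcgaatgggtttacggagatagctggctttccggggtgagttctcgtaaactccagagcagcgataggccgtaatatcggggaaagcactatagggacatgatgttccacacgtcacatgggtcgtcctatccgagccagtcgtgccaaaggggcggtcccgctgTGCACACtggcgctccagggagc
Mt2, chr8:94172368-94172617: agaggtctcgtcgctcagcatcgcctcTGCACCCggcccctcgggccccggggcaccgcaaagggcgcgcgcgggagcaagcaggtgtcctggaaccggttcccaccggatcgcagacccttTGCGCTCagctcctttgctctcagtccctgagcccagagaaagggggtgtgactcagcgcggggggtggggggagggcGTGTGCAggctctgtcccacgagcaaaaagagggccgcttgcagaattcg
Mt4, chr8:94136954-94137203: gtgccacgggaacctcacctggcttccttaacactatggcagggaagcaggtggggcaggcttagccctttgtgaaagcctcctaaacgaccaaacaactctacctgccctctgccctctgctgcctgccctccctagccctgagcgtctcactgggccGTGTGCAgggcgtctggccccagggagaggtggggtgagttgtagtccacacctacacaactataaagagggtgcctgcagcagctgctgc
Slc30a1, chr1:191906531-191906780: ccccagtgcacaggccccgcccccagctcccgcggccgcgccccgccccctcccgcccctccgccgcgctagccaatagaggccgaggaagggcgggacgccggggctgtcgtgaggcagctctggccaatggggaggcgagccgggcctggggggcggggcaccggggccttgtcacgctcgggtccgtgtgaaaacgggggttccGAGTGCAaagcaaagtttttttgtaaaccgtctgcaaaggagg
Slc30a10, chr1:185454598-185454847: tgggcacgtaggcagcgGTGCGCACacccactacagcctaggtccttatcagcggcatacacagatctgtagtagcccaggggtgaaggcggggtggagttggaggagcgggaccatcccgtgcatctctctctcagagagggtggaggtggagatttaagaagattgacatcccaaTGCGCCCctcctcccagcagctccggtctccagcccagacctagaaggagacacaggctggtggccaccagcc
In the full windows, Mt1 held 3 matches, Mt2 held 4, Mt3 and Mt4 held 1 each, Slc30a1 held 2 and Slc30a10 held 3, of which a pair overlap on opposite strands. Slc39a5 held 1 in the window of one start and 0 in that of the other, and Mtf1 held 0. Of 32851 mouse promoter windows of this length, 25.7% held at least 1 match, 7.11% at least 2, 1.97% at least 3 and 0.517% at least 4. The exporters Slc30a1 and Slc30a10 thus share this core with Mt1 and Mt2. A match describes letters only and no binding was measured. The counts depend on the start site used, and bases beyond the windows were not searched. Of the 3 matches of Mt1, 1 lay before its start. The RefSeq start of Mt2 lies upstream of the GENCODE gene start given above. Promoter sequences of Slc39a4 and Slc39a14 were not analysed here.

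The sensor Mtf1, at chr4:124802104-124849800, did not pass the test. It stood at 40.9, 36.6 and 42.4 CPM in Ppara lox/lox and 34.7, 38.3, 41.2 and 33.9 CPM in Ppara I-KO mice. The groups overlapped, with means of 40.0 ± 3.00 (SD, n = 3) and 37.0 ± 3.35 CPM (SD, n = 4). The log2 difference of Ppara I-KO minus lox/lox was -0.11 with an SE of 0.10 (limma, adjusted p = 0.954; two-sided exact permutation test, p = 0.314).

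Slc30a1, at chr1:191906767-191913247, encodes ZnT1, the exporter that carries zinc across the basolateral membrane and a well-known MTF1 target. It stood at 46.9, 49.9 and 39.2 CPM in controls and 43.8, 42.1, 43.3 and 41.2 CPM in Ppara I-KO mice. All 4 Ppara I-KO values lay inside the range of the controls, with means of 45.3 ± 5.51 (SD, n = 3) and 42.6 ± 1.19 CPM (SD, n = 4). The log2 difference was -0.08 with an SE of 0.10 (limma, adjusted p = 0.962; two-sided exact permutation test, p = 0.4). Its 95% interval ran from 0.812-fold to 1.099-fold. The difference moved to -0.010 without lox/lox replicate 2 and to -0.18 without lox/lox replicate 3.

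Slc30a10, at chr1:185454848-185468762, encodes a transporter of the same family known mainly for manganese export. It stood at 139, 103 and 84.6 CPM in controls and 123, 126, 129.8 and 91.5 CPM in Ppara I-KO mice. The groups overlapped, with lox/lox replicate 1 above all others and lox/lox replicate 3 below all others. The log2 difference was 0.12 with an SE of 0.18 (limma, adjusted p = 0.971; two-sided exact permutation test, p = 0.6), and without lox/lox replicate 3 it turned to -0.043.

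Slc39a4, at chr15:76612383-76617384, encodes ZIP4, the apical importer of dietary zinc whose loss causes acrodermatitis enteropathica. It was 308, 208 and 259 CPM in controls and 303, 258, 328 and 283 CPM in Ppara I-KO mice. The spread between mice was wide in both groups, with means of 258 ± 50.4 (SD, n = 3) and 293 ± 30.1 CPM (SD, n = 4). The log2 difference of 0.19 with an SE of 0.14 did not pass (limma, adjusted p = 0.954; two-sided exact permutation test, p = 0.314). It was 0.046 without lox/lox replicate 2 and 0.33 if lox/lox replicate 1 was left out instead. Leaving out both libraries richest in acinar RNA gave 0.028.

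Slc39a5, at chr10:128395931-128401229, encodes ZIP5 of the basolateral membrane, and Slc39a14, at chr14:70303469-70351425, encodes ZIP14, which carries zinc, iron and manganese. Slc39a5 stood at 144, 141 and 129 CPM in controls and 124, 136, 137 and 134 CPM in Ppara I-KO mice. Slc39a14 stood at 272, 221 and 215 CPM in controls and 250.39, 248, 249.95 and 231 CPM in Ppara I-KO mice. Both genes overlapped between groups, with little spread among the Ppara I-KO mice. The log2 difference was -0.06 with an SE of 0.08 for Slc39a5 (limma, adjusted p = 0.971; exact permutation test, p = 0.371) and 0.06 with an SE of 0.10 for Slc39a14 (limma, adjusted p = 0.975; exact permutation test, p = 0.6). Without lox/lox replicate 3, that of Slc39a14 was -0.0032.

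Of the 6 genes together, limma called 0, against 0.0299% of all genes, and 0 had an unadjusted p below 0.05, against 4.74% of all genes. Voom on read numbers also called 0 and found 0 at an unadjusted p below 0.05. Between groups, 0 of the 6 genes were without overlap, against 2.91% of all genes with I-KO higher and 3.28% with I-KO lower. At such shares, counts of 0 among 6 genes say little about these genes. Their 95% intervals lay between 0.795-fold and 1.45-fold. With 7 libraries the exact permutation test cannot go below p = 0.0286. Slc39a5 lies wholly within Ankrd52 on the other strand, over all 1947 of its exonic bases, and smaller overlaps of 721 to 761 bases with opposite-strand genes exist for Mtf1, Slc30a1 and Slc30a10. Whether reads were counted by strand is not given in the sources used here, so these levels may include reads of the partner.

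**Figure D4:**
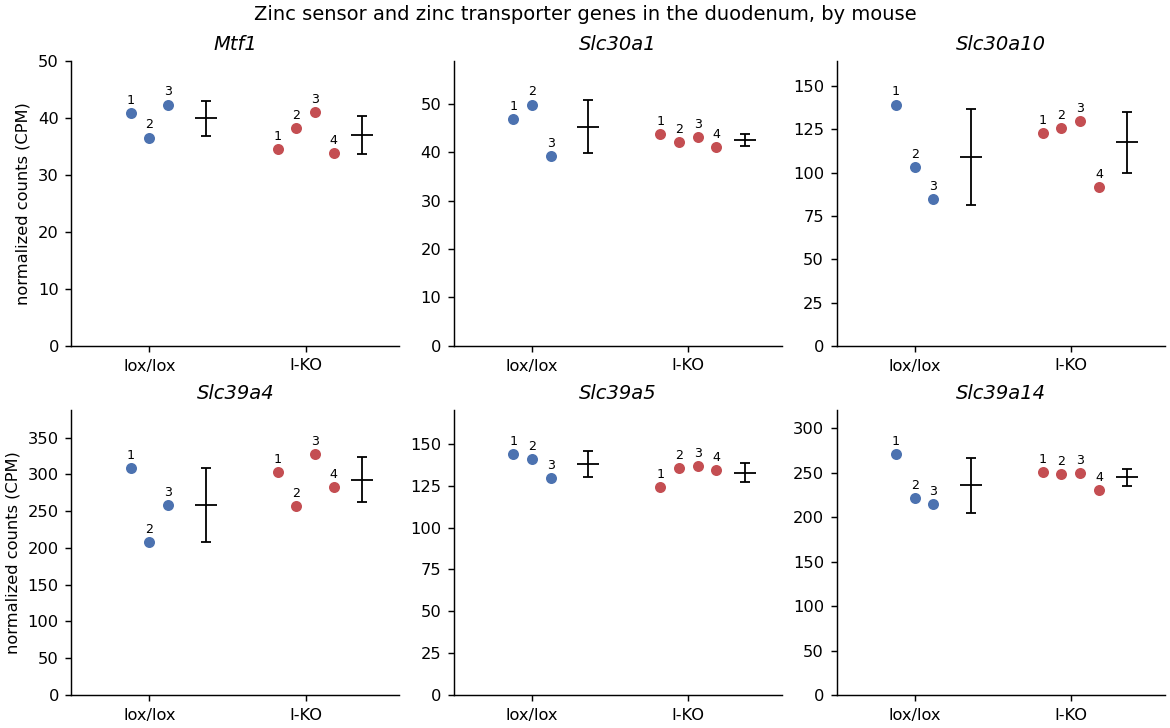
CPM of Mtf1, Slc30a1, Slc30a10, Slc39a4, Slc39a5 and Slc39a14 in each library, one panel per gene, with replicate numbers at the points and mean ± SD as black bars. In each panel the Ppara I-KO points overlap the Ppara lox/lox points.

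Differences were small in the wider transporter families as well. Of the 10 SLC30 genes, 8 were listed and tested. By limma, 0 were called and 0 had an unadjusted p below 0.05, against 0.0299% and 4.74% of all genes tested. The Ppara I-KO mean was higher on the log2 scale for 1 gene, Slc30a10, and lower for 7, with a median difference of -0.06 against 0.0017 over all genes tested. Slc30a6, a transporter of the secretory pathway, had the lowest difference and was the only SLC30 gene without overlap, a pattern found in 3.28% of all genes in this direction. It stood at 27.7, 27.9 and 31.1 CPM in controls and 26.6, 26.6, 26.5 and 24.4 CPM in Ppara I-KO mice. Its log2 difference of -0.14 did not pass (limma, adjusted p = 0.954). The two-sided exact permutation test gave an unadjusted p = 0.0286, the smallest value it can reach. This value largely restates the lack of overlap and was not adjusted for the 8 genes of the family.

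Of the 14 SLC39 genes, 13 were listed and 12 passed the filter. Again limma called 0, with 0 at an unadjusted p below 0.05, against 0.0299% and 4.74% of all genes tested. There were 4 genes with a higher and 8 with a lower Ppara I-KO mean, and the median difference was -0.0068. Differences ran from -0.22 for Slc39a8, an importer of zinc and manganese at 7.15 CPM in controls and 6.10 CPM in Ppara I-KO mice, to 0.19 for Slc39a4. Slc39a7, which releases zinc from the endoplasmic reticulum, stood at 125 CPM in both groups. Voom called 0 genes of either family, with 0 at an unadjusted p below 0.05.

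**Figure D5:**
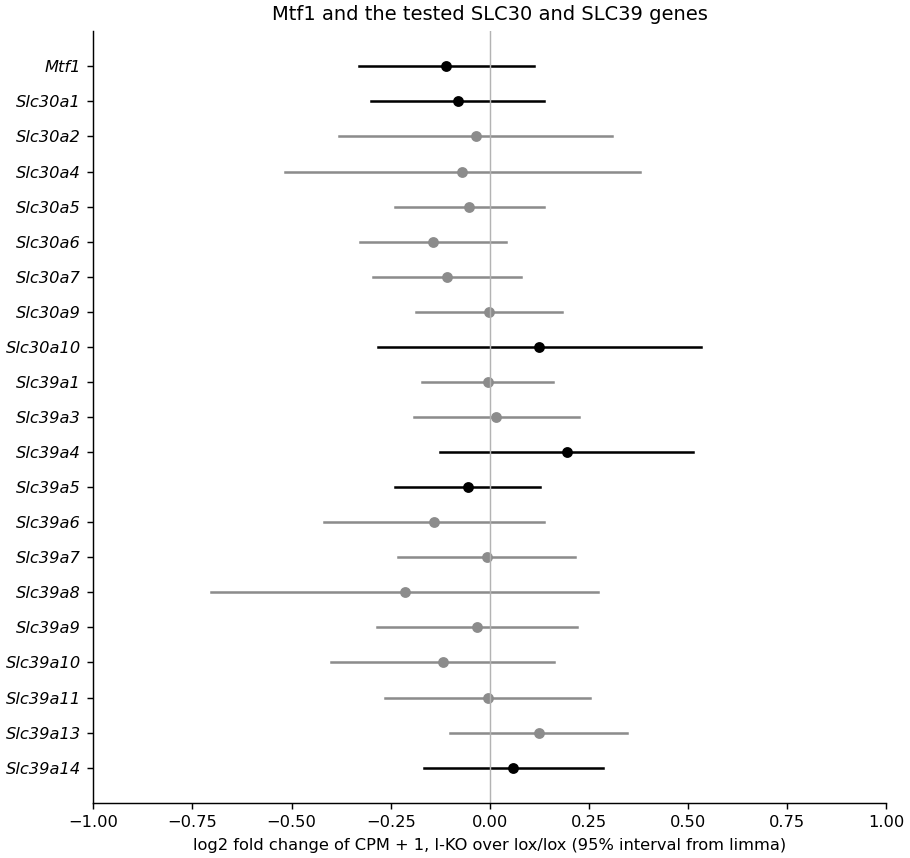
Log2(CPM + 1) difference of Ppara I-KO minus Ppara lox/lox with its 95% limma interval for Mtf1 and each tested SLC30 and SLC39 gene; black marks the genes described individually and grey the rest of both families. All differences lie between -0.22 and 0.19, and 0 of them passed the adjusted test.

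Other genes known to respond to zinc or MTF1 were read in the same way. Of 6 such genes, which include Slc30a1, all were tested, limma and voom each called 0, and 0 had an unadjusted p below 0.05 by either tool. Over all genes tested, limma called 0.0299%, and 4.74% had an unadjusted p below 0.05. A count of 0 calls in lists this short therefore says little. With 4 genes higher and 2 lower, the median difference was 0.03, from -0.12 for Slc39a10, whose transcription MTF1 is known to repress, to 0.26 for Ndrg1, a stress-responsive gene. Copper is the other main ligand of metallothioneins. Of 7 copper handling genes limma called 0, with 1 at an unadjusted p below 0.05, against 0.0299% and 4.74% of all genes. The differences in this list ran from -0.17 for Sod1, the copper-zinc superoxide dismutase, to 0.10 for Atp7b, a copper-exporting ATPase. Among 7 zinc enzymes of the enterocyte, limma called 0 with 1 at an unadjusted p below 0.05, against the same shares of all genes. Their differences ran from -0.37 for Car4, a carbonic anhydrase, to 0.31 for Alpi, the intestinal alkaline phosphatase. Voom called 0 in both lists, also with 1 each at an unadjusted p below 0.05.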

How the data were processed

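Duodenal RNA of 3 Ppara lox/lox and 4 Ppara I-KO mice was sequenced from TruSeq stranded mRNA libraries with 100-base single reads. Groups and replicate numbers follow the labels. The authors deposited signal values: read counts per gene scaled to an adjusted library size (CPM), at 2 decimals. The submitters' processing notes list FastQC 0.11.2, TopHat2 2.0.13, Picard 1.80, HTSeq 0.6.1 and edgeR, with the build mm10. How ambiguous or antisense reads were treated is not given in the sources used here.

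From these values, 1 line without a gene name was dropped. Genes above 1 CPM in at least 3 libraries (13399, while 1396 failed) were fitted as log2(CPM + 1) by genotype alone, using limma 3.58.1 (R 4.3.3), and p-values were adjusted by the Benjamini-Hochberg method at a threshold of 0.05. They measure the spread between replicates, called biological in the labels. Exact permutation tests ran over all 35 assignments of libraries to groups. Read numbers came from the step that 1 read is worth, 0.0393 to 0.0530 CPM, and served for depth, Wilson intervals and the floor of 3 reads. No replicate pair was within sampling noise (chi-square over degrees of freedom, 13.5 to 76.0). The fit was tested on simulated data first.

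The members and gene lists were chosen with earlier results of these data known. Named were the 10 members, SLC30 and SLC39 genes, the highest and lowest gene of other lists, and the 5 genes nearest to Mt1 in profile; Me1 and Ppara were named besides. Selenoh and Defa30 were matched by older symbols. Alternatives were other scaling, no filter, a pseudocount of 0.5, an intensity trend, a replicate block, each library left out, both libraries richest in acinar RNA left out and, added after seeing the data, voom. Coordinates come from GENCODE M21 (GRCm38) and promoters from RefSeq. Python 3.11.15, numpy 2.4.6, pandas 2.3.3, scipy 1.17.1, Biopython 1.88 and matplotlib 3.10.9 were used.

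Summed markers of other cell types are given for control and I-KO libraries in turn. They were 2201 to 2809 and 1358 to 3797 CPM for Paneth cells, and 1063 to 1320 and 1102 to 1550 CPM for smooth muscle. Neurons and glia had 11.1 to 13.0 and 11.6 to 14.4 CPM, and adipocytes 18.9 to 34.0 and 19.6 to 28.2 CPM. Hepatocyte markers had 2.12 to 3.52 and 1.91 to 4.63 CPM, and Brunner gland and stomach 0 to 0.13 and 0 to 1.20 CPM. Listed were only 6 of 7 Paneth, 3 of 7 hepatocyte and 1 of 4 Brunner gland and stomach markers.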

Additional observations from a re-analysis of the deposited data

Results flagged for a closer look

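In groups of 4, a library was singled out when its gap to the nearest other library exceeded Dixon's critical share of the whole range of the group. Of 35 quantities searched in the Ppara I-KO mice, 4 met this limit, where chance gives about 1.75, and the 3 controls are too few for such a search. Slc39a14 was 231 CPM in I-KO replicate 4 against 248 to 250.39 CPM in the other Ppara I-KO mice, a gap of 0.899 of the range. Slc30a6 was 24.4 CPM in the same library against 26.5 to 26.6 CPM, a gap of 0.933 of the range. The summed pancreatic acinar markers reached 405 CPM in I-KO replicate 1 against 25.6 to 40.8 CPM, a gap of 0.960 of the range. The summed Brunner gland and stomach markers reached 1.20 CPM in that library against 0 to 0.05 CPM, a gap of 0.958 of the range. Mt1 and Mt2 were highest and Mt4 second lowest among the Ppara I-KO mice in I-KO replicate 1, while all 3 were lowest in I-KO replicate 4. With I-KO replicate 1 left out, the log2 differences were 2.86 for Mt1 and 3.82 for Mt2, and leaving out I-KO replicate 4 in its place gave 3.04 and 4.02.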

How the results depend on the processing

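Over 15 alternatives, between 3 and 5 genes were called in the whole table, and the call of Me1 was lost in 9. Leaving out 1 library at a time gave 3 to 5 genes. The 6 zinc sensor and transporter genes and both transporter families had 0 calls under each alternative. As a description, Mt1 lay between 2.67 and 3.12 and Mt2 between 3.51 and 4.25 on the log2 scale, whereas Mt4 moved to 2.54 with a pseudocount of 0.5 and to 6.80 with voom, which uses another offset for its 0 control reads. Without lox/lox replicate 3, Slc30a10 reversed to -0.043 and Slc39a14 to -0.0032, and with single libraries left out they reached at most 0.31 and 0.16. The other ranges with single libraries left out were 0.046 to 0.33 for Slc39a4, -0.18 to -0.010 for Slc30a1, -0.17 to -0.07 for Mtf1 and -0.10 to -0.02 for Slc39a5. The median difference was -0.10 to -0.01 for SLC30 and -0.04 to 0.0097 for SLC39. The replicate number as a block called 3 genes, with Slc39a4 at 0.21 and Slc30a1 at -0.07. In this block fit I-KO replicate 4 has no partner and adds nothing. The main fit assumed no pairing by replicate number. Deviations of same-numbered libraries had correlations of -0.0141, 0.184 and -0.0092, and those of other pairs ran from -0.35 to 0.28. Shared litters or cages were not tested, and the paper describes the controls as lox/lox littermates. With the looser motif TGCNCNC, Mt3 held 3 matches, Mt4 held 5 and Mtf1 held 1, and 51.0% of all windows held at least 1. A count model (edgeR) was planned only for raw counts. It was not run, because the values were normalized and fewer than 95% of low values lay within 0.1 of a whole read in some libraries. In each library, 100% of low values still lay within the rounding of a whole read. With 3 against 4 mice, the 95% intervals of the 6 genes were 0.18 to 0.41 wide to either side on the log2 scale, so smaller differences were not detectable.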

Other observations

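Metallothioneins also respond to stress, glucocorticoids and acute-phase signals, and 3 lists of such genes were read beside them. Over all genes tested, limma called 0.0299%, and 4.74% had an unadjusted p below 0.05, so 0 calls in such short lists say little. Of 10 heat shock and oxidative stress genes limma called 0, with 1 at an unadjusted p below 0.05, and the median log2 difference was -0.05. The lowest was Hspa1b, an inducible heat shock protein, at 7.55 CPM in Ppara lox/lox and 3.73 CPM in Ppara I-KO mice, and the highest was Gclm, of glutathione synthesis, at 0.15. Of 7 glucocorticoid-responsive genes limma called 0, with 1 at an unadjusted p below 0.05. Their median was 0.13, from -0.07 for Sgk1, a kinase that regulates sodium transport, to 0.43 for Zbtb16, a transcription factor at 1.65 CPM in controls and 2.54 CPM in Ppara I-KO mice (limma, adjusted p = 0.822). Of 5 tested STAT3 and acute-phase genes limma called 0, with 0 at an unadjusted p below 0.05, and all 5 means were lower in Ppara I-KO mice on the log2 scale, from -0.86 for Lcn2 to -0.15 for Reg3b. On the CPM scale Reg3b (7339 in controls and 8138 in Ppara I-KO mice) and Reg3g (4078 and 4199) had the higher mean in Ppara I-KO mice, so their direction depends on the scale. Voom called 0 genes in each of the 3 lists, with 1, 1 and 0 at an unadjusted p below 0.05.

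Genes outside the members were ranked by how near their profile over the 7 libraries was to that of Mt1, as a root mean square distance on the log2 scale and as a description only. The nearest was Bcmo1, which cleaves beta-carotene, at a distance of 1.12, with 5.10 to 14.9 CPM in controls and 15.9 to 54.9 CPM in Ppara I-KO mice. Acta1, Nxf7, Fmr1nb and Cldn4 followed at distances of 1.56 to 1.73. Bcmo1, Nxf7 and Cldn4, a tight junction claudin, were higher in all Ppara I-KO mice without overlap, whereas Acta1 and Fmr1nb overlapped between the groups. Among all genes tested, 2.91% had this pattern without overlap. A ranking by closeness to Mt1, which was chosen for its rise, favours such genes, so nothing is read from it.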
